A study of Zea mays with 4 samples.

Results

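The miR166 members j to n are 5 loci of the maize miR166 family, and they were taken as the rows of the deposited miRNA table that carry these letters, both arms of each. They gave 10 entries of 576, made of 5 entries from the 3p arm and 5 from the 5p arm, and the remaining 16 miR166 entries belong to loci a to i. zma-miR166a-3p served as the reference. The entries were selected by name, and this choice was made with earlier results of these data known.

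A miRNA precursor folds into a hairpin from which a short duplex is cut, and in miR166 the 3p strand is the one that is loaded into the silencing complex, while the 5p strand is the partner, or star, strand. The loaded strand directs cleavage of transcripts of class III HD-ZIP transcription factors, of which rolled leaf1 is a maize example. These factors set the upper side of the leaf, and in the Arabidopsis root miR166 that moves inward from the endodermis limits them and thereby patterns the xylem.

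Small RNA came from the terminal 1 cm of roots of Zea mays cultivar Zhengdan 958, a hybrid raised in Hoagland's solution. The 4 libraries, 1 for each group, were the primary root at 3 days after germination (PRY), the primary root at 15 days (PRO), the seminal root at 7 days (SR) and the crown root at 15 days (CR). All groups share cultivar and solution, and the labels name no stress treatment or mutation. Roots of PRY, SR and CR were about 3 to 5 cm long, and no length is given for PRO. Root type and age cannot be told apart except between PRO and CR, which share an age, and between PRY and PRO, which share a root type. That age counts from germination, so PRO and CR can still differ in the length and age of the root itself. Values are RPM, reads for every 1000000 reads of a library total, and the totals implied by the values were 10721082 to 11572637 reads. RPM is not divided by length, and mature miRNAs differ little in length. A read was worth 0.0864 to 0.0933 RPM. By a 1-sided 95% limit, a count of 0 in a library allows up to 3 reads, or 0.259 to 0.280 RPM. The exact 95% intervals of a count of 0 reach further, to between 0.319 RPM in SR and 0.344 RPM in PRY. With 1 library a group there is no spread between replicates and no p-value. The 95% intervals below are exact and cover counting error only, which PCR copies of 1 molecule make too narrow. In a bulk root tip, fewer cells of a type and less miRNA per cell cannot be told apart. The extraction protocol in the labels speaks of both shoots and roots, while each library is labelled as roots. The table holds no markers that could check the tissue. The mature sequences were not analysed here, so reads that fit several entries could not be traced.

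The entries of the 5 loci were far apart in level, and nearly all of the reads were listed under 1 of them, zma-miR166l-3p. The level of zma-miR166l-3p was 333 RPM in CR, 344 in SR, 435 in PRO and 555 in PRY. In RPM it was highest in PRY and lowest in CR, an order that turns with another scaling described further on, with 3635, 3985, 4810 and 5951 reads from CR to PRY. zma-miR166m-3p was the next, at 20.2 RPM in CR, 24.5 in SR, 34.5 in PRO and 35.3 in PRY. In RPM both primary root libraries were high and the crown root library was low. This order too turns with another scaling described further on, where PRY was the lowest library. Of all reads listed for the 5 entries of the 3p arm, zma-miR166l-3p held 93.8% in PRY (95% exact interval 93.2 to 94.4), 92.6% in PRO (91.9 to 93.3), 93.2% in SR (92.4 to 93.9) and 94.2% in CR (93.4 to 94.9). Among the 321 known miRNAs of the table it ranked 25 in PRY and 35 in each of the other libraries, and zma-miR166m-3p ranked between 61 and 68.

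**Figure D1:**
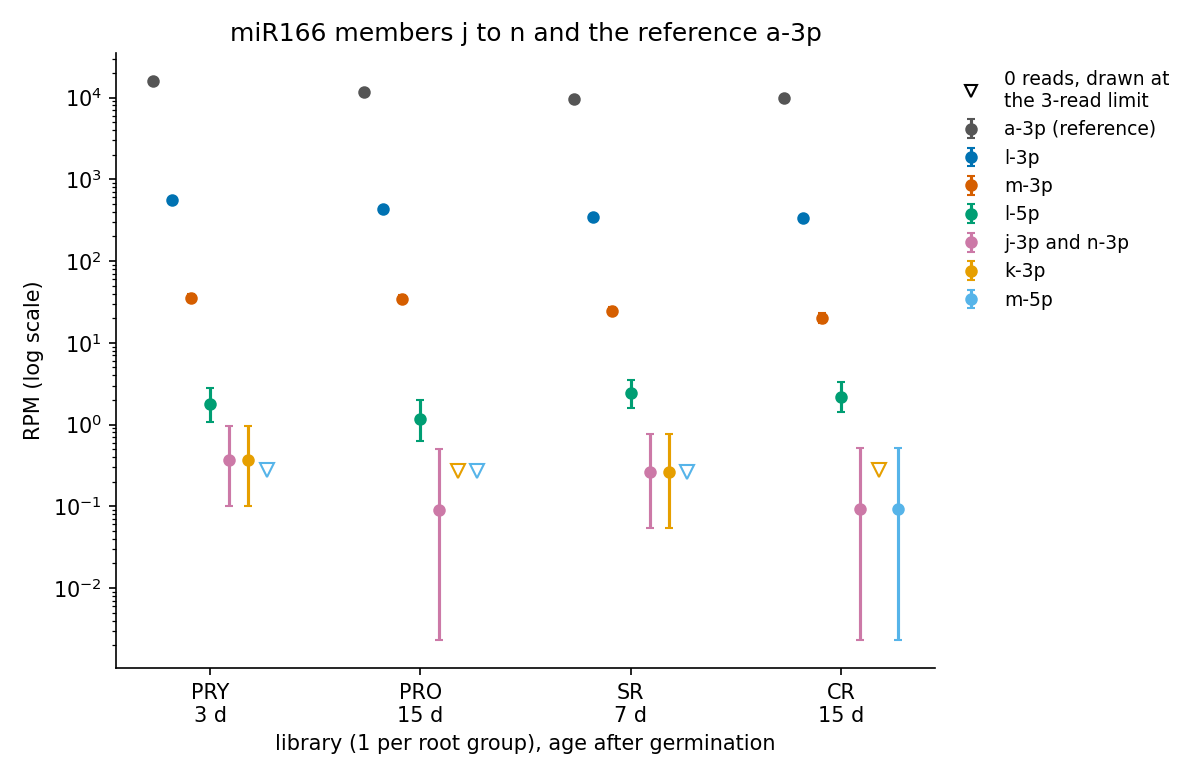
Levels of the members and of the reference miR166a-3p in each library, in RPM on a log axis, with exact 95% Poisson intervals (counting error only). Open triangles mark entries with 0 reads, drawn at the 3-read limit of that library, and 3 members with 0 reads in every library (j-5p, k-5p, n-5p) are not drawn. Each entry keeps its own range of levels, with l-3p at 333 to 555 RPM, m-3p at 20.2 to 35.3 and j-3p, k-3p and n-3p below 0.4.

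The other loci were at the limit of detection. zma-miR166j-3p had 4 reads in PRY, 3 in SR and 1 each in PRO and CR, that is 0.373, 0.259, 0.0904 and 0.0916 RPM. zma-miR166n-3p carried the same value as zma-miR166j-3p in every library. zma-miR166k-3p had 4 reads in PRY and 3 in SR, again the same numbers, and 0 in PRO and CR. These 3 entries may therefore count the same reads, which was not tested. The early primary root and the seminal root library were the higher ones, but 4 reads against 1 is a ratio of 4.13 with an interval of 0.408 to 203, so no difference between libraries was detectable at this depth.

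Of the star strands, zma-miR166l-5p was the one present in every library. It had 13 reads in PRO, 19 in PRY, 24 in CR and 28 in SR, which is 1.18, 1.77, 2.20 and 2.42 RPM. The values in the seminal and crown root libraries were above those in both primary root libraries. Of the pairs of libraries, however, SR against PRO alone had an interval that excluded 1 (2.06-fold, 1.03 to 4.33). zma-miR166m-5p had 0 reads in PRY, PRO and SR and 1 read in CR. zma-miR166j-5p, zma-miR166k-5p and zma-miR166n-5p had 0 reads in each library, and over the 4 libraries together 0 reads of 44271310 allow a level of up to 0.0678 RPM.

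Altogether 7 of the 10 members had at least 1 read somewhere, 5 had reads in every library and 2 reached 10 RPM, the minimum for a comparison between libraries. Of all known miRNAs 27.7% reached that minimum in at least 1 library. Loci a to i differed in that their 9 entries of the 3p arm all lay between 9310 and 15878 RPM. They formed 6 distinct sets of values, because zma-miR166b-3p, zma-miR166d-3p and zma-miR166e were equal, as were zma-miR166f and zma-miR166h-3p. Their 7 star strands lay between 0 and 26.1 RPM. zma-miR166c-5p was the highest of them by its mean, at 16.3 to 26.1, and zma-miR166h-5p, with 0 reads in every library, was the lowest. The level of zma-miR166l-5p thus fell inside the range of the star strands of a to i, while zma-miR166l-3p stayed below every 3p entry of those loci.

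In the RefSeq gene table of the B73 assembly Zm-B73-REFERENCE-NAM-5.0, 4 of the 5 loci j to n were matched by name. MIR166k and MIR166m are next to each other with no gene listed between them. MIR166j and MIR166l have no other miR166 locus beside them. The neighbours differed in their 3p reads: zma-miR166m-3p had 378 reads in PRY and 381 in PRO, where zma-miR166k-3p had 4 and 0. No build is named for the deposited table in the labels or header.

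The reference zma-miR166a-3p had 9618 RPM in SR, 9969 in CR, 11684 in PRO and 15878 in PRY. Ratios of 2 entries within 1 library do not depend on how the libraries are scaled, so the members were first set against this reference. zma-miR166l-3p had 3.50% as many reads as zma-miR166a-3p in PRY (3.41 to 3.59), 3.72% in PRO (3.62 to 3.83), 3.58% in SR (3.47 to 3.70) and 3.34% in CR (3.23 to 3.45). It was thus 26.9-fold to 29.9-fold below the reference in all 4 libraries. For zma-miR166m-3p the same value was 0.222% in PRY (0.200 to 0.246), 0.295% in PRO (0.266 to 0.326), 0.254% in SR (0.225 to 0.286) and 0.203% in CR (0.177 to 0.232). Here PRO was high, and CR and PRY were low.

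The later primary root library was set against the early one for stage within a root type. Relative to zma-miR166a-3p, zma-miR166m-3p was 1.33-fold higher in PRO (1.15 to 1.54), and zma-miR166l-3p was 1.06-fold higher (1.02 to 1.11). zma-miR166m-3p was also 1.25-fold higher in PRO relative to zma-miR166l-3p (1.07 to 1.45). So the 2 abundant members and the reference did not stand in the same proportions in these 2 libraries, and the departure was larger for zma-miR166m-3p.

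Against the later primary root at the same age after germination, the crown root library was lower for both members. The relative level of zma-miR166m-3p was 1.45-fold lower in CR (1.23 to 1.72) and that of zma-miR166l-3p 1.11-fold lower (1.07 to 1.17). Relative to zma-miR166l-3p, zma-miR166m-3p was 1.30-fold lower (1.09 to 1.55). Against the seminal root, zma-miR166m-3p relative to the reference was 1.25-fold lower in CR (1.05 to 1.50) and zma-miR166l-3p 1.07-fold lower (1.02 to 1.12), and the ratio of the 2 members differed by an amount whose interval included 1 (1.17-fold, 0.97 to 1.41).

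The remaining pairs differed less. Relative to the reference, zma-miR166l-3p was 1.05-fold lower in CR than in PRY (1.004 to 1.092), while the intervals of SR against PRY (0.98 to 1.07) and SR against PRO (0.921 to 1.004) included 1. For zma-miR166m-3p the intervals of SR against PRY (0.98 to 1.34), CR against PRY (0.77 to 1.08) and SR against PRO (0.74 to 1.01) included 1. In all, 4 of 6 pairs of libraries had an interval that excluded 1 for zma-miR166l-3p and 3 of 6 for zma-miR166m-3p. With 30 such intervals computed, they are not adjusted for their number, and entries of 1 family are not independent of each other.

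**Figure D2:**
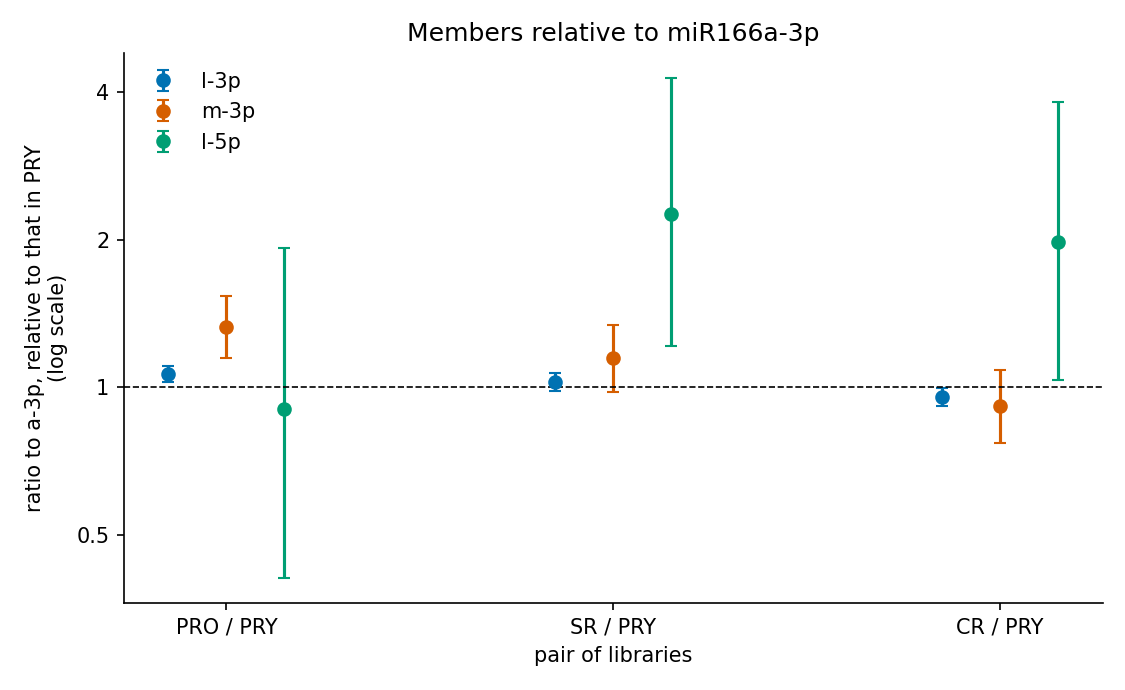
Level of each member relative to miR166a-3p in the same library, divided by that ratio in PRY, on a log axis with exact 95% intervals (counting error only), for l-3p, m-3p and l-5p. In PRO, m-3p lies at 1.33 and l-3p at 1.06, and l-5p lies at 2.25 in SR and 1.98 in CR, with wide intervals that rest on 13 to 28 reads a library.

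In proportion to its own 3p strand, the star strand of miR166l was higher in the seminal and crown root libraries than in both primary root libraries. The share of 5p reads in all reads listed for the locus was 0.318% in PRY (0.192 to 0.497), 0.270% in PRO (0.144 to 0.460), 0.698% in SR (0.464 to 1.01) and 0.656% in CR (0.421 to 0.974). Relative to zma-miR166l-3p, zma-miR166l-5p was 2.20-fold higher in SR than in PRY (1.18 to 4.18) and 2.07-fold higher in CR than in PRY (1.08 to 4.0). It was 2.60-fold higher in SR than in PRO (1.30 to 5.47) and 2.44-fold higher in CR than in PRO (1.19 to 5.23). The intervals of PRO against PRY (0.38 to 1.81) and CR against SR (0.52 to 1.68) included 1. These intervals rest on 13 to 28 reads of the star strand a library.

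Over the 4 libraries together the 5p share of miR166l was 0.455% (0.363 to 0.563), from 84 of 18465 reads. For comparison it was 0.187% for miR166c (0.176 to 0.199), 0.0769% for miR166a (0.0696 to 0.0848) and 0.0290% for miR166g (0.0245 to 0.0341), the loci of a to i with the most 5p reads. The 3p entries of a to i carried nearly equal values and may list the same reads, which was not tested, so the shares of those loci may not be those of single precursors. Reads listed for miR166l could not be traced to its precursor either. For miR166m it was 0.0791%, from 1 of 1264 reads (0.00200 to 0.440). The ratio of 5p to 3p reads in miR166m was 0.173 times that in miR166l, with an exact conditional interval of 0.00433 to 0.994. That interval comes close to 1 and rests on 1 read of zma-miR166m-5p, so it says little about the size of the difference.

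**Figure D3:**
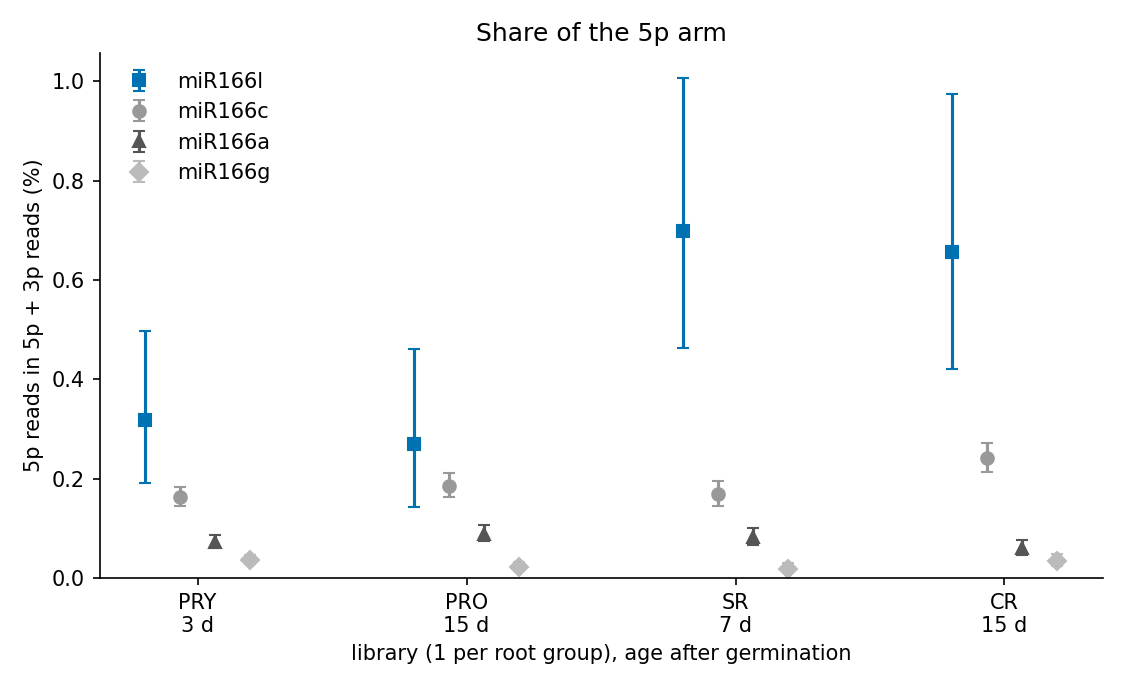
Share of 5p reads in the 5p and 3p reads listed for a locus, in percent, with exact 95% intervals (counting error only), for miR166l and the 3 loci of a to i with the most 5p reads. miR166l lies at 0.270% to 0.318% in the 2 primary root libraries and at 0.656% to 0.698% in SR and CR.

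Levels between libraries were then compared as deposited, per library total. zma-miR166l-3p was highest in PRY, then PRO, SR and CR. PRY lay 1.28-fold above PRO (1.23 to 1.33) and PRO 1.26-fold above SR (1.21 to 1.32), while SR and CR did not differ beyond counting error (1.03-fold, 0.989 to 1.08). zma-miR166m-3p had the same order, but its PRY and PRO levels did not differ beyond counting error (1.02-fold, 0.885 to 1.18), PRO lay 1.41-fold above SR (1.20 to 1.65) and SR 1.21-fold above CR (1.01 to 1.45). The reference had CR 1.04-fold above SR (1.03 to 1.05). For zma-miR166l-5p the order was SR, CR, PRY and PRO, and of its 6 pairs SR against PRO alone had an interval without 1, at 2.06-fold (1.03 to 4.33).

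These orders depend on the scaling. On the log2(RPM + 1) scale, zma-miR166l-3p differed from PRY by -0.35 in PRO, -0.69 in SR and -0.74 in CR, and with the total over distinct miRNA entries these values turned to 0.16, 0.14 and 0.37. zma-miR166m-3p differed from PRY by -0.03, -0.51 and -0.77, and with that total by 0.46, 0.29 and 0.30. With edgeR TMM factors the values of PRO and SR against PRY turned to positive for both members and those of CR did not. The differences of SR and CR from PRO kept their sign in each of the 4 scalings for zma-miR166m-3p, with CR against PRO at -0.74 as deposited and between -1.16 and -0.16 otherwise, while each of them turned in 1 scaling for zma-miR166l-3p. The median over all entries that reached the minimum moved in the same way, from -0.64 as deposited to 0.58 with the total over distinct entries in CR against PRY.

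The size rule for a count, higher or lower, was a difference of at least 1 in log2(RPM + 1), a 2-fold difference. Neither zma-miR166l-3p nor zma-miR166m-3p, the members that reached the minimum, was counted in any of the 6 pairs of libraries as deposited. Over all entries that reached it, 35.3% were counted between PRO and PRY, 47.5% between SR and PRY, 41.6% between CR and PRY, 25% between CR and SR, 31.6% between CR and PRO and 19.6% between SR and PRO. The 2 members' median and the median over all entries were -0.19 and -0.17 in PRO against PRY, -0.60 and -0.65 in SR against PRY, and -0.75 and -0.64 in CR against PRY. They were -0.16 and 0.05 in CR against SR, -0.56 and -0.31 in CR against PRO, and -0.41 and -0.34 in SR against PRO. Of the miR166 entries a to i none was counted either, of 10 or 11 that reached the minimum in a pair. With TMM factors zma-miR166m-3p was counted as lower in CR than in PRO, at -1.16. The median over all entries that reached the minimum was also lower with these factors, at -0.74 against -0.31 as deposited. The share of all entries counted with TMM factors was not computed, so this count has no background beside it.

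Likeness of pattern was measured as the largest difference, over the 4 libraries, between log2(RPM + 1) values each centred on its own mean, among 38 known miRNAs outside the family that reached 50 RPM. Closest to zma-miR166l-3p was zma-miR168a-5p, a regulator of the AGO1 silencing protein, with a largest difference of 0.18. zma-miR159a-3p, of a family that targets MYB transcription factors, followed at 0.42, with zma-miR159f-3p and zma-miR159b-3p, which carry nearly equal values, at 0.42 each. Within the family, zma-miR166a-3p differed by 0.08 and zma-miR166m-3p by 0.20. Closest to zma-miR166l-5p was zma-miR444a, of a monocot family that targets MADS-box transcription factors, at 0.27, followed by zma-miR164c-5p, zma-miR164a-5p and zma-miR164b-5p, of a family that targets NAC transcription factors, at 0.45 each. The highest library was SR for zma-miR166l-5p and CR for zma-miR444a. zma-miR166l-5p itself rested on 13 to 28 reads a library, where a pseudocount of 1 shrinks differences more than at 50 RPM. Also, 4 points allow many patterns to look alike.

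**Figure D4:**
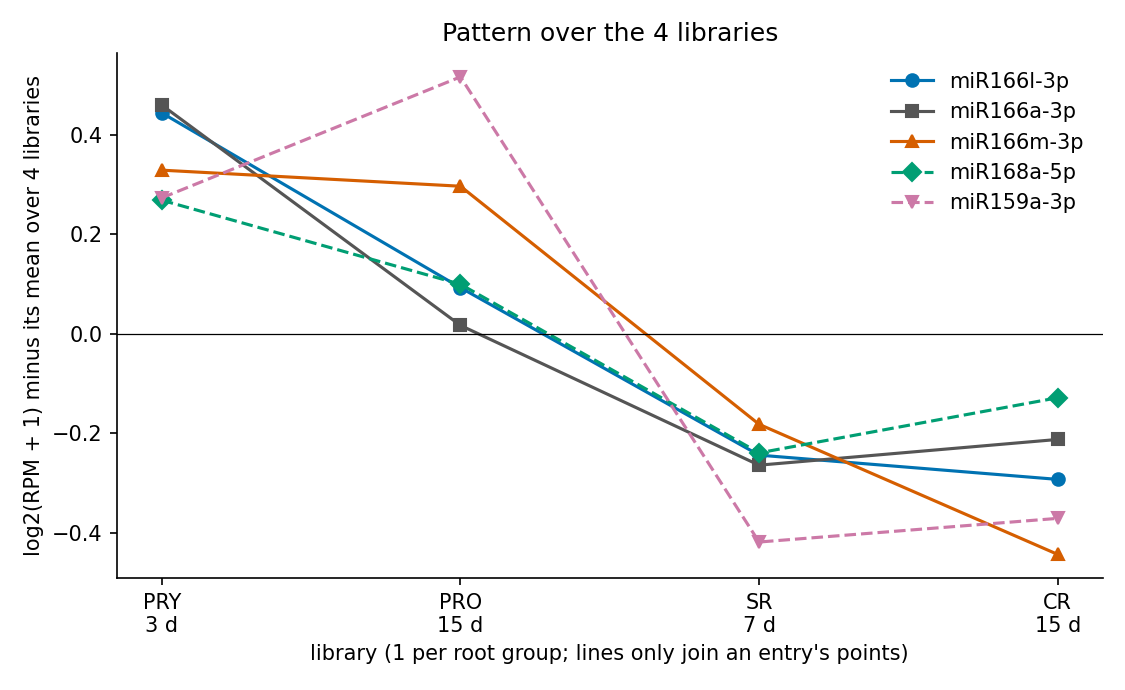
Value of log2(RPM + 1) minus its own mean over the 4 libraries, for l-3p, m-3p, the reference a-3p and 2 entries outside the family, as deposited and without error bars. The curves of l-3p and a-3p stay within 0.08 of each other, while m-3p is 0.20 above l-3p in PRO. With the total over distinct miRNA entries the differences of l-3p and m-3p from PRY change sign.

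miR390 acts on the opposite side of the same leaf patterning system: it starts the trans-acting siRNAs that limit auxin response factors, and in the maize leaf that pathway restricts where miR166 accumulates. Its 4 entries formed 2 pairs of equal values. zma-miR390a-5p had 33.5 RPM in CR, 45.1 in PRY, 48.2 in SR and 75.4 in PRO, and zma-miR390a-3p had 1.01, 0.653, 0.691 and 0.904 in the same libraries. The 5p entry was highest in PRO as deposited, and its level in CR was 0.444 times that in PRO (0.392 to 0.503). That difference was -1.15 on the log2(RPM + 1) scale and counted as lower, and it lay between -1.58 and -0.56 with the other scalings. It fell short of the size rule with the total over distinct miRNA entries (-0.56) and with DESeq2 factors (-0.78). As deposited, 31.6% of the 95 entries compared between CR and PRO were counted, 27 as lower and 3 as higher, so such a count was common there.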

How the data were processed

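Small RNA of 18 to 30 nt was gel-purified and, after 18 cycles of PCR, read by a Solexa Genome Analyzer, per the labels' protocols. The aligner, miRNA reference release and handling of reads that fit several miRNAs have no description in the labels or header (not given in the sources used here). Values as deposited are headed TPM and were read as RPM, since 100% were whole multiples of 1 step per library within 0.01 read. The steps gave the library totals and the reads behind each value. What a total covers is not known.

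From these reads, exact Poisson intervals were computed for levels, Clopper-Pearson intervals for shares and ratios of 2 counts, and conditional (Fisher) intervals for ratios of ratios. edgeR's quasi-likelihood test was not run on the recovered reads, since no group has a replicate, so it makes no calls. Entries at 10 RPM in 1 library of a pair were compared with a pseudocount of 1, which understates ratios of low entries. Alternatives were the total over distinct miRNA entries, TMM factors (edgeR 4.0.16), DESeq2 1.42.0 size factors, a pseudocount of 10, no minimum, identical entries counted once, another reference and a minimum of 20 reads per locus. The named entries were all members, the reference, the highest and lowest of the lists a to i and miR390 by mean, and the 4 most alike in pattern to the highest member of each arm. Other entries of a to i and miR390 that are named were chosen after their values were seen. Members and lists were chosen with earlier results of these data known. The counting code was tested on simulated data. Python 3.11.15, pandas 2.3.3, numpy 2.4.6, scipy 1.17.1, matplotlib 3.10.9 and R 4.3.3 were used.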

Additional observations from a re-analysis of the deposited data

How the results depend on the processing

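The number of members counted was 0 in each of the 6 pairs as deposited. It stayed 0 under each alternative, except that TMM factors gave 1 in CR against PRO, zma-miR166m-3p. With TMM factors the RPM of every entry was divided by 1.23 in CR and by 0.907 in PRO, which lowers all entries in that pair alike. Why these factors differ was not tested. For the 2 members tested, only the other scalings could raise this count. A pseudocount of 10 only shrinks differences, and counting identical entries once left the same 2 members. Without a minimum, members with 4 reads or fewer still cannot reach a difference of 1, so only zma-miR166l-5p was added as a member that could be counted. The relative levels of zma-miR166l-3p and zma-miR166m-3p between libraries stayed inside their intervals in all 6 pairs with the summed distinct 3p entries a to i as reference. That sum holds zma-miR166a-3p itself and entries with nearly equal reads, so this outcome was fixed in advance and is no check of the reference. The percentages themselves fell to 0.562% to 0.628% and 0.0342% to 0.0497%, since the sum is larger by construction. Sign changes of log2 ratios were most frequent with the total over distinct miRNA entries, 5 of 6 pairs for zma-miR166l-3p and 4 of 6 for zma-miR166m-3p, against 2 of 6 each with TMM factors and 1 of 6 each with DESeq2 factors. A pseudocount of 10 can change no sign, so that setting is no check of direction. A minimum of 20 reads leaves out miR166j, miR166k and miR166n from the 5p share and leaves miR166l and miR166m as they were. No paired analysis was possible because each group has 1 library. Depth limits what can be said of zma-miR166l-5p, on 13 to 28 reads a library, and more so of the other members below 10 RPM, on 0 to 4.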

Other observations

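The 3p entries of loci a to i fall into a higher and a lower set, and the gap between them was close in size to zma-miR166l-3p. zma-miR166b-3p exceeded zma-miR166f by 3155 reads in CR, 3541 in SR, 4309 in PRO and 5191 in PRY, where zma-miR166l-3p had 3635, 3985, 4810 and 5951. The gap was thus 86.8%, 88.9%, 89.6% and 87.2% of zma-miR166l-3p in the same order. This was noticed after the values were seen. The reference zma-miR166a-3p is in the higher set, with 170227 reads in PRY beside 170209 for zma-miR166b-3p and 165018 for zma-miR166f. Whether the gap and zma-miR166l-3p list the same reads was not tested. If they do, the ratios of zma-miR166l-3p to the reference set a part against a whole. Their intervals, which treat both counts as separate, would then not hold as given.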
